A study of Mus musculus with 6 samples.

Results

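The enzymes that write, erase and maintain DNA methylation, and the core of polycomb repressive complex 2 (PRC2), were followed as a group of 10 genes in mouse hepatocytes that had received Sox4. The 10 genes were taken by symbol from the deposited count table, which held 53599 gene symbols: Dnmt1, Dnmt3a, Dnmt3b and Uhrf1, the TET genes Tet1, Tet2 and Tet3, and Ezh1, Ezh2 and Eed. All 10 passed the filter on low counts and were among the 12691 genes tested.

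RNA-seq covered 6 hepatocyte libraries, 3 animals for each of 2 viral vectors, and asked what Sox4 alters in hepatocytes 4 days after delivery. The control animals (EV, empty vector; genotype given as WT) received AAV8-TBG-Cre, and the Sox4 animals (genotype given as Sox4) received AAV8-TBG-HA-Sox4-P2A-Cre, so that every animal expressed Cre under TBG, a promoter active in hepatocytes. By the study's methods the mice were male and carried a Cre-dependent Cas9-EGFP allele at Rosa26 on a C57BL/6J background, and those given Sox4 vectors were 4 to 8 weeks old at injection. Cells were released with liberase and enriched as hepatocytes on Percoll, without sorting, so each library could hold transduced and untransduced hepatocytes and other liver cells.

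Cytosine methylation at CpG sites is copied to the new DNA strand by DNMT1, which UHRF1 recruits to replicating DNA, and is laid down on unmethylated sites by DNMT3A and DNMT3B. TET1, TET2 and TET3 oxidise methylcytosine, a step towards its removal. PRC2 places methyl groups on lysine 27 of histone H3 (H3K27) through its catalytic subunit, EZH2 or EZH1, on a scaffold of EED and SUZ12; EZH2 is typical of dividing cells and EZH1 of resting cells such as the adult hepatocyte.

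The promoter windows of Uhrf1, Dnmt1 and Ezh2 are shown first, as the only ones among the 10 genes to hold a word that was searched for. In RefSeq (GRCm38.p6) the 10 genes had 15 annotated starts, and the 250 bases before each start were searched on both strands for 4 E2F words (TTTCCCGC, TTTGGCGC, TTTCGCGC and TTTGCCGC) and 2 SOX words (AACAAAG and AACAATG). An E2F word was found before 1 of 2 Uhrf1 starts and 1 of 3 Dnmt1 starts, 2 of 15 windows, against 611 of 32851 windows (1.86%) over all RefSeq promoters. All 4 E2F words contain a CpG and the members' windows were richer in CpG by the median, so this share is not a like background. No excess can be read from 2 windows. A SOX word was found in 1 window, that of Ezh2, against 8.12% of all windows. No window of a member held both kinds of word. Capitals mark the word in each sequence; for Dnmt1, which lies on the minus strand, the word reads on the strand opposite to the gene, and for Dnmt1 and Ezh2 only the bases around the word are shown.
Uhrf1, chr17:56304063-56304312, plus strand, word 185 bases before the start: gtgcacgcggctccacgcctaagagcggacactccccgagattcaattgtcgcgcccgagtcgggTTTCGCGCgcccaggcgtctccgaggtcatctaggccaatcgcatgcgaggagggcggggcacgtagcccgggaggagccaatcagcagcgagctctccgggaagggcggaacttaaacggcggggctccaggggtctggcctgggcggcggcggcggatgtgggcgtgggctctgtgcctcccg
Dnmt1, chr9:20952825-20952852, minus strand, word 219 bases before the start: gtttccgcgcGCGCGAAAaagccggggt
Ezh2, chr6:47595246-47595272, minus strand, word 232 bases before the start: ttggcaaaagAACAAAGacagcgactg
In GENCODE M21, annotated exons of any gene covered 166 of the 250 bases of this Dnmt1 window, 125 of Ezh2 and 0 of this Uhrf1 window. The Dnmt1 and Ezh2 windows are thus partly exon sequence and not wholly upstream of transcription. These are letter matches and not measured binding sites, and no binding data were used here. The 15 windows of the 10 genes had a median of 17 CpG dinucleotides and 68.4% G or C, against 6 and 52.4% over all promoters. They differed widely, from 2 CpG in a Dnmt1 window to 51 in that of Tet2.

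The libraries held between 15090629 and 16964860 counts. Levels are given as CPM, counts per 1e+06 counts of library size after scaling by the trimmed mean of M-values (TMM), and 3 counts, taken as the floor, were worth 0.218 to 0.231 CPM in EV and 0.153 CPM or less in Sox4. The delivered gene went with the labels: EV 1, EV 2 and EV 3 held 2, 0 and 3 counts of Sox4, and Sox4 1, Sox4 2 and Sox4 3 held 21697, 15097 and 11816. Hepatocyte markers summed to between 128824 and 153684 CPM in the EV libraries and between 89483 and 103594 CPM in the Sox4 libraries, with 8 of 12 lower and none higher, so the labelled cell type was present in every library.

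Of the 10 genes, 8 were higher in the Sox4 libraries, none was lower and 2, Ezh1 and Eed, did not pass the threshold (adjusted p of 0.05 over all genes tested, from edgeR's quasi-likelihood F test). Uhrf1 and Tet1 reached the filter's count minimum of 10 in no EV library and in all 3 Sox4 libraries, so they entered the test through the group where they were high and could differ in that direction alone; the other 8 members reached it in every library, and 6 of these were higher. Change was common in this comparison: 55.1% of all genes tested passed, 29.0% as higher and 26.0% as lower. The median log2 fold change of the 10 genes was 0.92, beside 0.04 for all genes tested. In 9 of the 10 genes, all but Eed, the libraries of 1 group lay wholly on 1 side of the other group, where 63.0% of all genes tested did so. The 8 increases fell into 2 sizes: Uhrf1, Tet1 and Ezh2 rose by 2.64 or more on the log2 scale, and Dnmt1, Dnmt3a, Dnmt3b, Tet2 and Tet3 by 0.74 to 1.21.

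**Figure D1:**
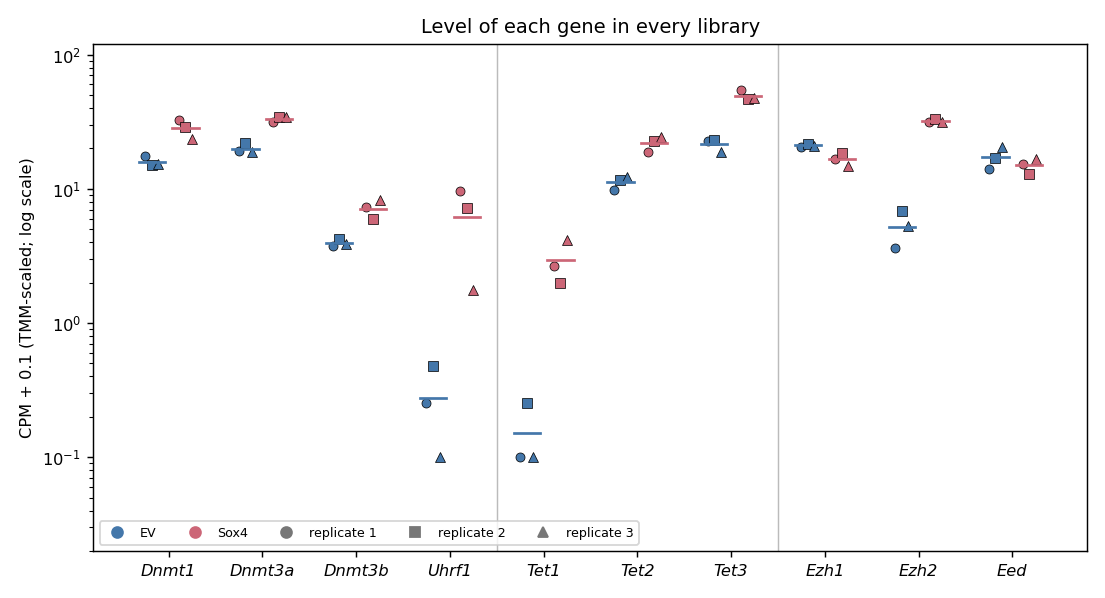
Level of each gene in every library, in TMM-scaled CPM with 0.1 added, on a log axis; colours give the group, marker shapes the replicate number (which does not pair the groups), and horizontal lines the group means. Ezh2 lay between 31.3 and 33.1 CPM in Sox4 and between 3.54 and 6.68 CPM in EV, Uhrf1 and Tet1 were near or at 0 in EV, and the groups overlapped in Eed alone.

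Among the writers, Dnmt1, the maintenance methyltransferase, was at 17.4, 14.9 and 15.1 CPM in EV 1 to 3 and at 32.5, 28.8 and 23.4 CPM in Sox4 1 to 3. Every Sox4 library was above every EV library, and the spread was wider in Sox4. The group means were 15.8 ± 1.40 and 28.2 ± 4.56 CPM (SD, n = 3), 1.79-fold apart, a log2 fold change of 0.84 (SE 0.15, edgeR adjusted p = 0.00125).

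Uhrf1, whose protein brings DNMT1 to hemimethylated DNA, was nearly unread in EV, with 2, 5 and 0 counts, while the Sox4 libraries held 189, 138 and 33 counts. As levels the Sox4 libraries were at 9.46, 7.04 and 1.67 CPM. All 3 were above the EV libraries, but Sox4 3 was far below the other two. The log2 fold change was 5.05 (SE 0.95, edgeR adjusted p = 0.00197), and it lay between 4.45 and 6.19 when single libraries were left out. On summed counts, 360 against 7, the scaled ratio was 34.6 (95% interval 16.6 to 86.7, exact binomial, counting error only).

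The de novo methyltransferases rose by similar amounts. Dnmt3a was at 19.0, 21.8 and 18.7 CPM in EV and at 31.4, 34.2 and 34.1 CPM in Sox4, and Dnmt3b at 3.62, 4.10 and 3.77 CPM in EV and at 7.16, 5.81 and 8.09 CPM in Sox4. Neither gene's groups overlapped. Dnmt3a rose 1.67-fold (log2 fold change 0.74, SE 0.08, edgeR adjusted p = 0.000617) and Dnmt3b 1.83-fold (0.87, SE 0.15, edgeR adjusted p = 0.00683). Dnmt3l, the catalytically inactive partner of DNMT3A and DNMT3B in germ cells, had 0 counts in all 6 libraries.

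Of the erasers, Tet3 had the highest level per exon length (RPKM) and Tet1 the lowest in both groups. Tet3 was at 22.6, 23.0 and 18.6 CPM in EV and at 54.2, 46.5 and 47.6 CPM in Sox4, with no overlap. It rose 2.31-fold (log2 fold change 1.21, SE 0.12, edgeR adjusted p = 4.21e-05). Tet2 was at 9.78, 11.5 and 12.2 CPM in EV and at 18.8, 22.6 and 24.1 CPM in Sox4, also without overlap. Its rise was 1.96-fold (log2 fold change 0.97, SE 0.14, edgeR adjusted p = 0.000553).

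The EV libraries held 0, 2 and 0 counts of Tet1, and the Sox4 libraries 51, 37 and 80. No EV library thus exceeded the floor, and every Sox4 library did, at 2.55, 1.89 and 4.05 CPM. The fitted log2 fold change was 5.62 (SE 0.50, edgeR adjusted p = 0.00021), with a range of 5.07 to 8.61 over the fits without single libraries. On summed counts, 168 against 2, the scaled ratio was 56.5, with a wide interval of 15.4 to 470.7 (95%, exact binomial).

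In PRC2, the catalytic subunits moved apart. Ezh2 was at 3.54, 6.68 and 5.15 CPM in EV 1 to 3 and at 31.3, 33.1 and 31.5 CPM in Sox4 1 to 3. The Sox4 libraries were close together and all far above EV. Ezh2 rose 6.24-fold, from 5.12 ± 1.57 to 32.0 ± 1.02 CPM (SD, n = 3), a log2 fold change of 2.64 (SE 0.26, edgeR adjusted p = 7.09e-06).

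Ezh1 was at 20.6, 21.3 and 20.9 CPM in EV and at 16.5, 18.3 and 14.7 CPM in Sox4. The Sox4 libraries all lay below EV, yet the difference did not pass the threshold: the log2 fold change was -0.34 (SE 0.09, edgeR adjusted p = 0.0528), and with libraries scaled by size alone it was 0.13. Without Sox4 replicate 2 it was -0.42 with an adjusted p of 0.048, and limma-voom also gave a pass, at -0.35 and 0.0462. Eed, the subunit that binds methylated H3K27, was at 14.01, 16.8 and 20.5 CPM in EV and at 15.2, 12.7 and 16.6 CPM in Sox4. Its groups overlapped, and its log2 fold change was -0.20 (SE 0.19, edgeR adjusted p = 0.348), or 0.27 with library size alone.

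**Figure D2:**
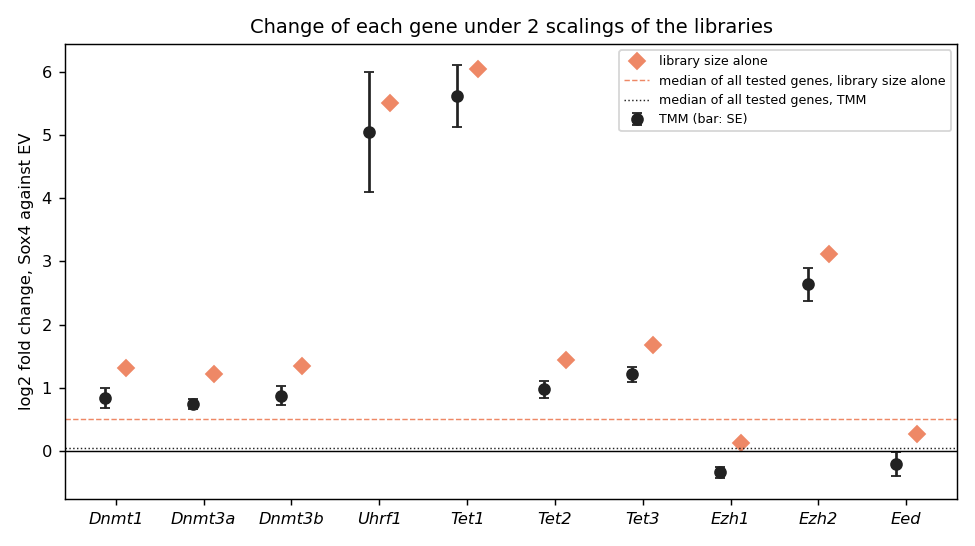
Log2 fold change of Sox4 against EV for each gene, as dots with TMM scaling (bars are the SE) and as diamonds with library size alone; the dotted and dashed lines mark the median of all tested genes under each scaling, 0.04 and 0.51. The 8 genes that passed lay above both medians on their own scale, while Ezh1 and Eed lay below them and were on opposite sides of 0 under the 2 scalings.

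Because TMM raised the scaled library size of Sox4 over that of EV, the direction of small changes depended on it, and the 4 ratios between members within a library, which need no scaling, were therefore computed. The ratio of Ezh2 to Ezh1 counts was 0.172, 0.313 and 0.247 in EV 1 to 3 and 1.89, 1.81 and 2.15 in Sox4 1 to 3. The order of the pair was thus opposite in the groups, also per exon length (RPKM, 2.81 for Ezh1 and 0.767 for Ezh2 in EV against 2.22 and 4.79 in Sox4), and the ratio differed 8.16-fold (log2 difference 3.03, SE 0.26). The ratio of Uhrf1 to Dnmt1 was 0.00885, 0.0255 and 0 in EV and 0.291, 0.244 and 0.0713 in Sox4, again without overlap (log2 difference 4.26, SE 1.21, with 0.5 added to each count). Because Uhrf1 reached the filter's count minimum in no EV library, the direction of this ratio was fixed beforehand, and it is description only. For both ratios the two-sided exact permutation test gave p = 0.1, the smallest that 3 libraries against 3 allow.

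The other ratios did not separate the groups. Dnmt3b to Dnmt3a was 0.190, 0.188 and 0.202 in EV and 0.228, 0.170 and 0.237 in Sox4 (log2 difference 0.11, SE 0.15, exact permutation p = 0.4). Tet3 to Tet2 was 2.31, 2.01 and 1.52 in EV and 2.88, 2.06 and 1.97 in Sox4 (log2 difference 0.24, SE 0.25, exact permutation p = 0.5).

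**Figure D3:**
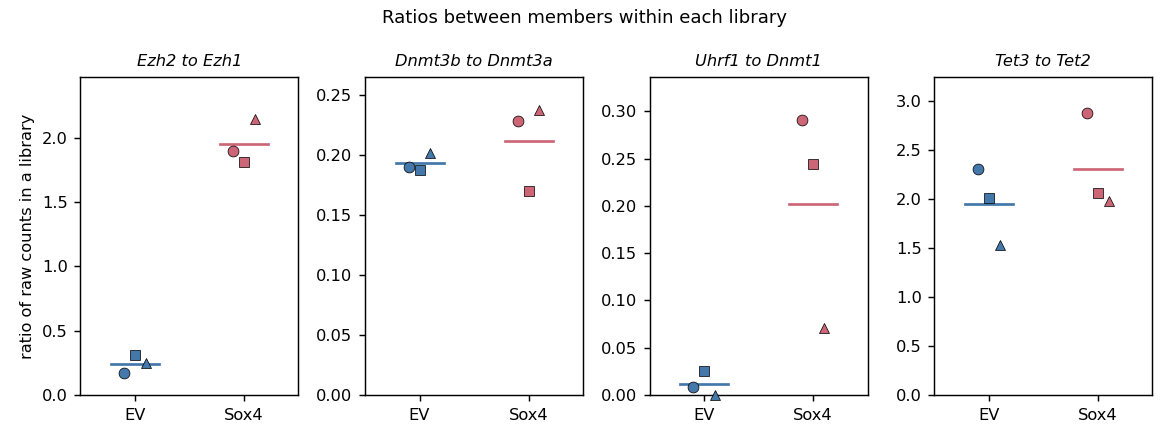
Ratio of raw counts between 2 genes in the same library, by group, on linear axes that start at 0 and differ between panels; each marker is a library, with shapes for replicate numbers, and lines are group means. The groups were apart for Ezh2 to Ezh1 (means 0.244 and 1.95) and Uhrf1 to Dnmt1 (means 0.0115 and 0.202) and overlapped for the other pairs. Uhrf1 was below the filter's count minimum in every EV library, so the direction of its ratio was fixed beforehand.

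Compared per length (RPKM, CPM per kilobase of annotated exon in GENCODE M21), the order of the 10 genes differed between the groups. In EV the order was Eed (4.47 ± 0.844 RPKM, SD, n = 3), Ezh1 (2.81), Dnmt1 (2.14), Tet3 (1.28), Dnmt3a (1.19), Ezh2 (0.767), Dnmt3b (0.750), Tet2 (0.660), Uhrf1 (0.0417) and Tet1 (0.00327). Neighbours whose libraries overlapped in EV were Tet3 and Dnmt3a, Ezh2 and Dnmt3b, Dnmt3b and Tet2, and Uhrf1 and Tet1. In Sox4 Ezh2 came first (4.79 ± 0.152 RPKM, SD, n = 3), followed by Eed (3.88), Dnmt1 (3.83), Tet3 (2.96), Ezh1 (2.22), Dnmt3a (2.00), Uhrf1 (1.42), Dnmt3b (1.38), Tet2 (1.29) and Tet1 (0.183). There the gaps from Ezh2 to Eed, Tet3 to Ezh1 and Tet2 to Tet1 held in every library, and the other neighbours overlapped.

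The rest of the machinery was described from 6 lists of 88 genes, of which 83 were tested. Of these, 43 (51.8%) were higher, 13 (15.7%) lower and 27 did not pass, beside 29.0% and 26.0% over all genes tested. With library size alone the counts were 58 higher and 7 lower. The lists were drawn up with earlier results of these data known, and the counts are a description of them. Cdca7l and Phf19 entered the test through a single group, so the counts hold outcomes fixed in advance.

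Of 16 tested readers and cofactors of DNA methylation, 8 rose, 1 fell and 7 did not pass, with a median log2 fold change of 0.46. Cdca7l, among the 8, had 3, 0 and 0 counts in EV and 39, 28 and 38 in Sox4. It thus entered the test through Sox4 and could be called as higher alone. Hells, a chromatin remodeller that works with the DNMT enzymes, was at 0.693, 1.67 and 0.653 CPM in EV and at 9.16, 9.43 and 7.94 CPM in Sox4, a log2 fold change of 3.13 (SE 0.40, edgeR adjusted p = 5.15e-05). Cdca7, its partner, rose by 1.35 (edgeR adjusted p = 0.0156; up to 0.0614 when EV 1, EV 3 or Sox4 1 was left out) and Uhrf2, the paralog of Uhrf1, by 1.18 (edgeR adjusted p = 1.25e-05) on the log2 scale. Unlike Uhrf1, Uhrf2 was well read in EV, at 26.2 to 28.6 CPM. Mbd2, a reader of methylated CpG, was at 58.2, 62.8 and 57.0 CPM in EV and fell to 28.9, 32.3 and 28.7 CPM in Sox4 (log2 fold change -0.98, SE 0.07, edgeR adjusted p = 5.07e-05).

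Of 13 tested partners of active demethylation and base excision, 7 rose, 1 fell and 5 did not pass, with a median of 0.65. The Gadd45 genes, stress-responsive genes linked to demethylation, led the list. Gadd45b was at 1.31, 0.607 and 0.943 CPM in EV and at 22.2, 42.7 and 23.3 CPM in Sox4, a log2 fold change of 4.94 (SE 0.41, edgeR adjusted p = 9.37e-06), and Gadd45a and Gadd45g rose by 2.29 and 1.82. Tdg, the glycosylase that excises oxidised methylcytosine and a gene outside the naming rule, chosen after its values were seen, rose from 16.6 ± 0.311 to 49.96 ± 1.33 CPM (SD, n = 3; log2 fold change 1.59, edgeR adjusted p = 3e-06). The isocitrate dehydrogenases, which make the 2-oxoglutarate that TET enzymes consume, moved in opposite directions: cytosolic Idh1 fell by 0.75 (edgeR adjusted p = 0.00154) and mitochondrial Idh2 rose by 1.33 (edgeR adjusted p = 3.44e-05) on the log2 scale. The fall of Idh1 did not pass with library size alone (-0.28, adjusted p = 0.117).

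The methyl donor cycle, which makes and recycles S-adenosylmethionine, the substrate of both DNMT and EZH enzymes, was the list with a negative median, -0.74, with 7 of 12 genes lower, 4 higher and 1 not past the threshold. Without EV 2 or without Sox4 2 the counts were 6 lower and 1 higher. Mat1a, the S-adenosylmethionine synthetase of the adult liver, fell 5.81-fold, from 4246 ± 277 to 731 ± 283 CPM (SD, n = 3; log2 fold change -2.54, SE 0.32, edgeR adjusted p = 4.22e-05). Gnmt, a glycine methyltransferase that uses up the donor, was at -2.63 (SE 0.35, edgeR adjusted p = 5.91e-05), and Ahcy, which clears its product, at -1.92 (SE 0.14, edgeR adjusted p = 9.77e-06). Mat2a, the synthetase of dividing and fetal liver cells, rose by 0.54 (edgeR adjusted p = 0.0235), with overlapping groups, and Mat2b, its regulatory subunit, by 0.70 (edgeR adjusted p = 0.000368). The call of Mat2a was lost in 4 of the 6 fits without single libraries, where the adjusted p reached 0.0939. The ratio of Mat2a to Mat1a, computed after the values were seen, was 0.0128, 0.0137 and 0.0185 in EV and 0.107, 0.208 and 0.0982 in Sox4.

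Of the 11 other PRC2 subunits tested, 7 rose, 2 fell and 2 did not pass, with a median of 0.56. Phf19, among the 2 that fell, had 13, 18 and 15 counts in EV and 9, 10 and 3 in Sox4. It reached the filter's minimum, scaled to library size, only in EV and could be called as lower alone. Suz12, the remaining core subunit, was at 35.3, 34.9 and 39.2 CPM in EV and at 32.0, 37.7 and 44.3 CPM in Sox4. Like Eed, it overlapped between the groups (log2 fold change 0.06, SE 0.14, edgeR adjusted p = 0.729). Rbbp4 and Rbbp7, the histone-binding subunits, rose by 0.56 and 0.37 (edgeR adjusted p = 0.00895 and 0.0143). Larger changes were found in accessory subunits of PRC2: Mtf2 was at 5.70, 8.27 and 7.76 CPM in EV and at 23.6, 27.3 and 26.5 CPM in Sox4 (log2 fold change 1.83, SE 0.18, edgeR adjusted p = 1.84e-05), Jarid2 rose by 1.56 (edgeR adjusted p = 1.91e-05) and Epop by 1.47 (edgeR adjusted p = 0.00514). Phf1, which is related to Mtf2, was at -1.09 (SE 0.51, edgeR adjusted p = 0.0412), with overlapping groups, and its call was lost with library size alone and when any of EV 1, EV 2, Sox4 2 and Sox4 3 was left out (adjusted p up to 0.12). Ezhip, an inhibitor of PRC2, had 0 counts in all libraries.

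In polycomb repressive complex 1 (PRC1), which ubiquitinates histone H2A and binds the PRC2 mark, 12 of 23 tested genes rose, 2 fell and 9 did not pass, with a median of 0.70. Cbx6, a chromobox subunit, was at 0.616, 0.303 and 0.943 CPM in EV and at 6.31, 4.54 and 6.22 CPM in Sox4 (log2 fold change 3.17, SE 0.41, edgeR adjusted p = 9.13e-05). Cbx7, a chromobox subunit that binds the same mark, went the other way, from 7.54, 6.07 and 6.82 CPM to 1.75, 2.75 and 2.02 CPM (log2 fold change -1.64, SE 0.20, edgeR adjusted p = 0.000464). Phc1 rose by 2.36 (edgeR adjusted p = 0.000115) and Kdm2b, which brings a variant PRC1 to CpG islands, by 1.95 (edgeR adjusted p = 1.01e-05). Pcgf5 fell by 0.71 (edgeR adjusted p = 0.00137), a call lost with library size alone (-0.24, adjusted p = 0.14).

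Of 8 tested genes of H3K27 demethylation and of the PR-DUB complex, which removes the PRC1 mark, 5 rose, none fell and 3 did not pass, with a median of 0.39; without EV 2, 3 passed. Kdm6b, a demethylase that opposes PRC2, was at 31.2, 24.0 and 20.7 CPM in EV and at 100.3, 75.4 and 77.4 CPM in Sox4. All Sox4 libraries were above EV (log2 fold change 1.74, SE 0.22, edgeR adjusted p = 3.3e-05). Kdm6a, its X-linked paralog, rose by 0.63 (edgeR adjusted p = 0.0106) and Asxl1, a PR-DUB subunit, by 1.07 (edgeR adjusted p = 6.29e-05).

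**Figure D4:**
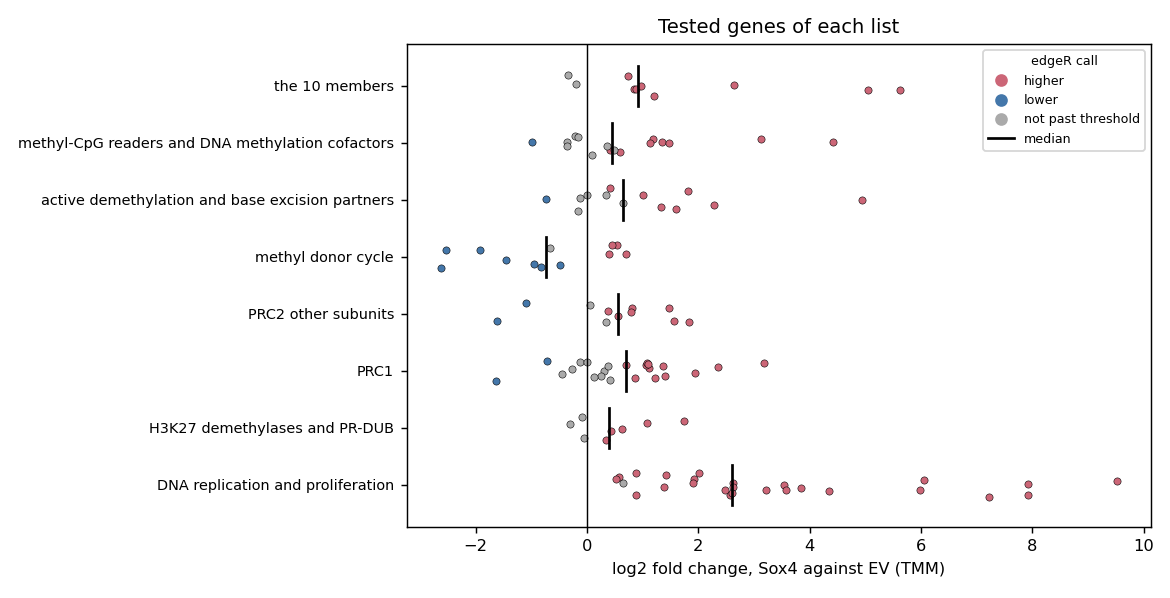
Log2 fold change (TMM) of every tested gene of the 10 members, the 6 lists of related machinery and the proliferation genes, coloured by the edgeR call; black bars are list medians and vertical jitter has no meaning. Medians lay between 0.39 and 0.92 for the members and 5 of the lists, at -0.74 for the methyl donor cycle and at 2.61 for DNA replication and proliferation.

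Of 41 Hox and Cdkn2 genes, targets of PRC2, none passed the filter, 30 had 0 counts in every library and no library held more than 6 counts of any of them. Of 15 germline genes with methylated promoters, 9 had 0 counts in every library, and the only one tested, Tdrkh, had 53, 53 and 60 counts in EV and 76, 71 and 84 in Sox4, a log2 fold change of -0.09 (edgeR adjusted p = 0.746). For the genes below the filter, a difference was not detectable at this depth. DNA methylation and H3K27 methylation were not measured in these libraries.

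DNA replication and proliferation genes moved with the members. Of 26 tested, 25 were higher in Sox4, beside 29.0% of all genes tested, with a median log2 fold change of 2.61. Several, among them Ccnb1, Mki67, Cdc6, Bub1 and Plk1, were below the filter's count minimum of 10 in every EV library. Those genes entered the test through Sox4 and could be called in that direction alone, so the count and median hold outcomes fixed in advance. The summed level of the list was 74.0, 75.4 and 77.7 CPM in EV 1 to 3 and 309, 294 and 226 CPM in Sox4 1 to 3. Ccnb1, a mitotic cyclin, had 0 counts in every EV library and 107, 160 and 63 counts in Sox4, and Mki67, a marker of cycling cells, had 2, 0 and 0 counts in EV and 276, 302 and 252 in Sox4. Among the 3 Sox4 libraries, Sox4 3 had the lowest sum, the lowest Uhrf1 and Dnmt1 and the fewest counts of Sox4, but the highest Tet1, Tet2 and Dnmt3b. Ezh2 did not follow the sum, at 31.3, 33.1 and 31.5 CPM in Sox4 1 to 3. The part of cycling cells in the rise of Uhrf1, Dnmt1 and Ezh2 was not tested.

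Markers of other liver cells also moved with the groups. The summed level of Kupffer cell markers was 11.1, 23.5 and 27.8 CPM in EV and 29.1, 59.4 and 67.0 CPM in Sox4, with 4 of 8 tested genes higher; the call of Cd5l was lost without EV 2 (adjusted p = 0.0525). Stellate cell and fibroblast markers summed to between 10.5 and 48.3 CPM in the EV libraries and between 88.7 and 145 CPM in the Sox4 libraries, with 3 of 4 tested genes higher, while Hand2 was at 3 counts or fewer. Reln carried these sums: without it they were 3.39, 6.22 and 10.8 CPM in EV 1 to 3 and 10.4, 28.5 and 37.9 CPM in Sox4 1 to 3, which overlapped. The call of Reln was lost with the replicate block (adjusted p = 0.211), without a filter (0.129) and without EV 2, Sox4 1 or Sox4 2 (0.0979 to 0.154), and those of Col3a1 and Ecm1 were also lost in fits without single libraries (up to 0.109 and 0.057). For sinusoidal endothelial markers the EV sums ran from 22.1 to 39.4 CPM and the Sox4 sums from 19.6 to 48.4 CPM, with 2 of 9 higher and 1 lower. All 3 of these calls, Clec4g and Kdr as higher and Stab2 as lower, were lost in several fits without single libraries, with an adjusted p of up to 0.1, 0.105 and 0.12. For cholangiocyte markers the range was 40.4 to 53.8 CPM in EV against 86.5 to 96.6 CPM in Sox4, with 2 of 5 tested genes higher (Epcam and Spp1), while Krt19 had 0 counts in EV and 9, 2 and 7 in Sox4. Epcam had 1, 0 and 5 counts in EV, below the filter's count minimum in every library, and 55, 39 and 60 in Sox4. It thus entered the test through Sox4 and could be called as higher alone. The study reports that Sox4 induced EPCAM and several biliary genes in hepatocyte-derived cells. It saw no KRT19 protein in the EGFP+ cells derived from hepatocytes. Epcam and other induced biliary genes thus need not come from cholangiocytes, and the source of the markers, Krt19 included, was not tested. Lymphocyte and neutrophil markers summed to 4.64 CPM or less in every library, and erythroid markers summed to at least 92.9 CPM in EV and at most 15.5 CPM in Sox4. The erythroid sum was nearly all Alas2, the single gene of the list that was tested (log2 fold change -3.45, edgeR adjusted p = 0.000687); without it the sums were 0.385, 0.152 and 0.508 CPM in EV and 0.901, 2.09 and 0.860 CPM in Sox4, higher in Sox4, and no globin gene exceeded 22 counts. The part of these cells in the members' changes was not tested. In such bulk libraries fewer cells of a type and less RNA per cell cannot be told apart.

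For each gene that passed, the tested genes with the most similar pattern were named by the Euclidean distance of centred log2 CPM over the 6 libraries. They were Sort1, Bag6 and Tmem223 for Dnmt1 (smallest distance 0.0835), Hs2st1, Dhx30 and AI597479 for Dnmt3a, and Plekhm3, Pgap3 and Tra2b for Dnmt3b. Zfp773, Ephb6 and Gpr137b were nearest to Tet1, Zfp280d, Snhg1 and Ccnt1 to Tet2, and Idh2, Smarca4 and 4921524J17Rik to Tet3. Nearest to Ezh2 were Acer2, Cdc25a, a phosphatase that drives the cell cycle, and Rap2b, with a smallest distance of 0.239. Uhrf1 had no close neighbour: its nearest, Ddah2, was 1.37 away, followed by Stil and Dtl.

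The 10 genes lie on 9 chromosomes (GENCODE M21, GRCm38): Dnmt1 on 9, Dnmt3a on 12, Dnmt3b on 2, Uhrf1 on 17, Tet1 on 10, Tet2 on 3, Tet3 and Ezh2 on 6, Ezh1 on 11 and Eed on 7. No member shared 100 bases or more at 95% identity with transcripts of another gene. Annotated antisense genes overlapped 6.82% of the exon bases of Eed, 2.61% of Ezh2, 0.799% of Dnmt3a (Dnmt3aos) and 0.255% of Tet2; the strand setting of the counting is not given in the sources used here, so their reads cannot be told apart.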

How the data were processed

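Hepatocyte RNA of 3 EV and 3 Sox4 animals was sequenced. Per the labels and the study's methods, the authors aligned reads to GRCm39 with STAR (2.7.10b in the submitters' processing notes) and made the gene counts with featureCounts 2.0.1. The deposited values used here are raw counts per gene. A second deposited table, normalized by the authors with DESeq2, was not used. The annotation release and strand setting are not given in the sources used here.

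The comparison was run in edgeR 4.0.16 under R 4.3.3 (filterByExpr, minimum count 10, minimum total 15; TMM; robust quasi-likelihood F test; no covariate), with Benjamini-Hochberg adjustment over the 12691 genes tested. All adjusted p-values are from this fit unless another tool is named. Each SE of a fold change was computed from the variances of log2 CPM (prior count 2) within the groups. That prior shrinks differences at low counts, so for Uhrf1 and Tet1 the SE can understate the error of the fitted change. Ratios between members were tested by exact two-sided permutation over the 6 libraries. The steps were tested on simulated data. Alternatives were other scalings, DESeq2 1.42.0, limma-voom (limma 3.58.1), other filters, a replicate block and leaving out each library.

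Groups and replicate numbers came from the labels. By the study the libraries of a group came from separate animals. The edgeR p-values thus weigh a group difference against the spread between animals, which edgeR moderates over all genes tested. Within groups, libraries differed beyond sampling noise (chi-square per degree of freedom 17.6 to 62.7) and were kept as separate replicates. Counting intervals and floors cover counting error only.

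Members and lists were chosen with earlier results of these data known. Genes named were the 10 members, Sox4, up to 3 genes in each direction of each list with an adjusted p under 0.05 and a mean count of at least 20, and the 3 nearest genes of each member that passed. Tdg, Suz12, Rbbp4, Rbbp7, Dnmt3l, Ezhip and 3 further markers (Hand2, Krt19 and Tdrkh) were added for their roles after values were seen. Cdca7l, Phf19, Cdc6, Bub1 and Plk1 were named only to state a limit set by the filter. Promoters were read from RefSeq (GRCm38.p6; all 10 symbols matched), and lengths, antisense overlap and shared transcript sequence (blastn 2.17.0) from GENCODE M21 on GRCm38, another build than that of the counts.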

Additional observations from a re-analysis of the deposited data

How the results depend on the processing

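The 8 genes that rose kept their direction and passed in every alternative in which they were tested, 13 in all and 12 for Tet1, which the filter on a mean count of 50 removed. Uhrf1 passed narrowly with limma-voom (adjusted p = 0.0488), the largest value among the 8. Ezh1 and Eed turned positive with library size alone, at 0.13 (adjusted p = 0.422) and 0.27 (adjusted p = 0.203). The number of members called was 7 with the filter on a mean count of 50 and 9 with limma-voom, the replicate block and without Sox4 replicate 2, where Ezh1 passed as lower. Genes called in all ranged from 5937 to 8092; with library size alone 79.9% of the 8092 were higher, against 52.7% with TMM. Without single libraries the count was 6027 to 7269, and that of the 6 lists 44 to 59, against 56. Of the results for other named genes, 530 kept their call, 49 lost it and none reversed. A ratio of Uhrf1 to Dnmt1 without an added count was not possible, since EV 3 had 0 counts of Uhrf1; leave-one-out values were 3.30 to 5.07 for this ratio, 2.80 to 3.23 for Ezh2 to Ezh1, 0.02 to 0.26 for Dnmt3b to Dnmt3a and 0.07 to 0.38 for Tet3 to Tet2.

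Replicate numbers do not mark a known pairing. Deviations from group means correlated at 0.273, -0.0898 and 0.131 across genes for libraries sharing a number. With the replicate block 7362 genes were called, 6853 of them shared with the fit without it, the 6 lists held 63, and Ezh1 was at -0.35 (adjusted p = 0.0442). Depth limited Uhrf1 and Tet1, which had 7 and 2 counts in EV in all, and left the Hox, Cdkn2 and germline genes largely untested.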
